A study of Mus musculus with 2 samples.

Results

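The genes described are receptors of natural killer (NK) cells and their lectin relatives in mouse back skin, taken from 2 arrays as every gene whose printed name begins with Klr or Clec, together with Ncr1, Cd209a to Cd209e, Cd69 and Nkg7. This gave 63 of the 27576 gene names on the array, of which 31 were Klr genes, 24 Clec genes and 5 Cd209 genes. The names were taken as the files print them, and each of the 88 probes of these genes was printed as 1 spot. The NK-type (Klr) and the myeloid-type (Clec) receptors were set against each other.

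C-type lectin-like receptors share a fold that binds sugars in some members and proteins in others. The Klr proteins are carried mainly by NK cells and by some T cells, among them the gamma-delta T cells of mouse epidermis, where they read class I molecules and stress ligands on neighbouring cells. Most Clec proteins with a signalling tail or a signalling partner are carried by macrophages, dendritic cells and neutrophils, and recognise microbial sugars, lipids or material from dead cells. In the mouse most genes of both kinds lie together on chromosome 6, in a region called the NK gene complex and in a neighbouring cluster.

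Skin of FGF18-injected and of PBS-injected mice was compared, FGF18 being a fibroblast growth factor that hair follicles make. All mice were C3H/HeN males aged 61 days in which depilation had started anagen, when follicles grow new hair. On day 4 they received 1 µg of FGF18 or, as the control, phosphate-buffered saline (PBS) under the back skin, and full-thickness skin was taken 24 h afterwards, 5 days after depilation. 1 single-colour array was hybridised for each group. The labels name 3 mice without saying whether that is per group, and they describe the RNA both as pooled within a group and as extracted from separate mice. The title of the PBS sample says telogen, the resting phase, where its other labels say anagen. No other treatment, allele or transgene is named for either group, and whole skin holds follicle, epidermis, dermis, muscle, fat and blood cells together. With 1 array per group no difference below has a replicate check, no p-value is given, and precision is limited by the number of arrays.

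Signals are the processed signals of the scanner software, in arbitrary units. Ratios are log2 values, FGF18 minus PBS, after each array was scaled to its 75th percentile, and the error given with ± is the software's own error of the spots, which leaves out any difference between mice. Both arrays measured 16611 genes, whose log2 ratios had the median -0.07 and the SD 0.40. Of these genes 254 (1.53%) were higher on the FGF18 array by 2-fold or more and 165 (0.993%) lower by 2-fold or more. A probe counted as measured where its spots were well above background. A gene measured on 1 array only has just a bound, its bright signal against the higher of its own signal on the dim array and the lowest signal well above background there (23.3 for FGF18 and 24.2 for PBS), written as "at least" so many fold. Such a bound leaves out the error of the bright signal. A ratio of signals from bulk skin cannot tell a change in the number of cells of a type from a change in RNA per cell.

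Promoters were available from RefSeq (build GRCm38.p6) for 47 of the 63 genes, as 56 windows of 300 bases. The 250 bases before the start site are shown for some members that held a searched motif, so that the motifs can be seen in place. The selection was made after the motif results and the ratios were known, and it did not follow the size of the ratio. Clec2d is shown at 0.51, whereas Clec4d (1.18), Clec4a3 (1.04), Klra2 (at least 3.38-fold) and Klra17 (at least 2.85-fold) also held motifs and are not shown. The windows of Klra2 and Klra17 held GAGGAA but not TGTGGT, so the NK genes shown do not stand for all higher Klr genes. Klrc2 and Ncr1, which have 2 windows each, are shown by 1. Klrk1 (chr6:129623865-129624114, minus strand), Klrc2 (chr6:129660557-129660806, minus strand) and Klrc3 (chr6:129643289-129643538, minus strand) encode NK receptors of 1 cluster, and Ncr1 (chr7:4337465-4337714, plus strand) and Nkg7 (chr7:43436888-43437137, plus strand) are NK genes of another chromosome. Clec4e (chr6:123289872-123290121, minus strand) is the myeloid member with the largest bound, and Clec2d (chr6:129180365-129180614, plus strand) encodes a ligand of NK receptors. Capitals mark the letters of 5 short motifs, searched on both strands: GAAA, any 2 bases and GAAA again (interferon response element), TTCNNNGAA (STAT site), AGGTGT (T-box), TGTGGT (RUNX) and GAGGAA (PU.1).
Klrk1: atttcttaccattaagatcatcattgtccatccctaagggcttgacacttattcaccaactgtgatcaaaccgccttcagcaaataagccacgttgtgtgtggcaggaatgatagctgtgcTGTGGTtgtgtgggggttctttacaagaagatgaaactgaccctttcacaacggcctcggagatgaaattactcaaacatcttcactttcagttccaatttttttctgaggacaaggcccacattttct
Klrc2: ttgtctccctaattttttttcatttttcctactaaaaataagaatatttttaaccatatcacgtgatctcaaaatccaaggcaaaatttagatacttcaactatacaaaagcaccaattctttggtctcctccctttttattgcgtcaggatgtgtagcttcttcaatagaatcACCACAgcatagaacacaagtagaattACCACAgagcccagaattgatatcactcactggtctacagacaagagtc
Klrc3: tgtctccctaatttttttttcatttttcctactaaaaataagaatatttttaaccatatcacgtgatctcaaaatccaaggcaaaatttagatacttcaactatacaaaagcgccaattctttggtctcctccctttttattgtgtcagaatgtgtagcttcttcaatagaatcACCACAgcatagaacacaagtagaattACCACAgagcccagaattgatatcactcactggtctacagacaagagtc
Ncr1: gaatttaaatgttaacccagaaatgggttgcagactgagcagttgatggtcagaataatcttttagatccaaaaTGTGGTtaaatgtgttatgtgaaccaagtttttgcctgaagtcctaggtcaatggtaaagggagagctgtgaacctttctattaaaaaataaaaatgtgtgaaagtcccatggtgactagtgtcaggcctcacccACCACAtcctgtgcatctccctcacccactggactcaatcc
Nkg7: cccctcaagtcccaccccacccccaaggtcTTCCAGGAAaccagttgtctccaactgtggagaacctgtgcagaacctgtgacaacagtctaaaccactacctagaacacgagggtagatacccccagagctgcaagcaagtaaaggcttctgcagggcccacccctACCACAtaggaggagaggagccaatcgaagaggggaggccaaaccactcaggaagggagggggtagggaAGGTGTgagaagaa
Clec4e: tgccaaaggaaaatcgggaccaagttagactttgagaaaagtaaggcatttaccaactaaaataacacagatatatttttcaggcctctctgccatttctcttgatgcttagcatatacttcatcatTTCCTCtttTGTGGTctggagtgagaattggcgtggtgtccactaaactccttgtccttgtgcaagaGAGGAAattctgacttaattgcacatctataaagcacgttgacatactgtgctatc
Clec2d: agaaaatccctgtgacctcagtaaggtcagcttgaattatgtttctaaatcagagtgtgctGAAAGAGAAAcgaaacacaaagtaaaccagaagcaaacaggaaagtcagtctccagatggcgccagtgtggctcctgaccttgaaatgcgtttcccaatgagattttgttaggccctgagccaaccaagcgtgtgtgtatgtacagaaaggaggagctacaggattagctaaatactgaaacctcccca

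The RUNX letters TGTGGT, or their reverse complement, lay 129 bases before the start of Klrk1, 76 and 49 bases before those of both Klrc2 and Klrc3, 176 and 41 bases before that of Ncr1, 83 bases before that of Nkg7 and 114 bases before that of Clec4e. Over all members 21 of the 56 windows held TGTGGT (37.5%), against 16.8% of the 32851 mouse promoters of the same length. The PU.1 letters GAGGAA were in 28 of the 56 windows, against 28.3% of all promoters. The 25 Klr windows held GAGGAA in 15 and TGTGGT in 9, and the 23 Clec windows held them in 12 and 7. The interferon response letters were in 0 of the 25 Klr windows and in 3 of the 23 Clec windows, those of Clec2d, Clec4b1 and Clec4d, against 3.44% of all promoters. The STAT letters were in 6 and the T-box letters in 3 of the 56 windows, against 8.30% and 13.7% of all promoters. Windows of related genes are not independent: the 250 bases of Klrc2 and Klrc3 shown above were 95.6% identical, counted position by position without alignment. Those of Klrc2 and Klrk1 were 26% identical by the same count, which does not say how alike they would be once aligned. These matches describe letters only.

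Both arrays measured 28 of the 63 genes, the FGF18 array alone 13, the PBS array alone 2 and neither array 20. Among the 6 Klr genes measured on both arrays, 3 stood at least 2-fold higher on the FGF18 array and 0 stood 2-fold lower, where 1.53% and 0.993% of all genes were. Their median log2 ratio was 1.18 and their range -0.45 to 1.52. Another 11 Klr genes were measured on the FGF18 array only, a state found in 3.46% of all genes measured on any array, and 1 on the PBS array only (2.28% of all genes). Of the 15 Clec genes that both arrays measured, 2 stood at least 2-fold higher and 1 stood at least 2-fold lower, with a median of 0.08 and a range of -1.11 to 1.18. The Klr median stood 1.10 above the Clec median on the log2 scale, which describes 6 and 15 genes on these arrays and has no test. It left out the 13 Klr and 7 Clec genes measured on neither array, and genes measured on the FGF18 array only could not have been lower there.

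**Figure D1:**
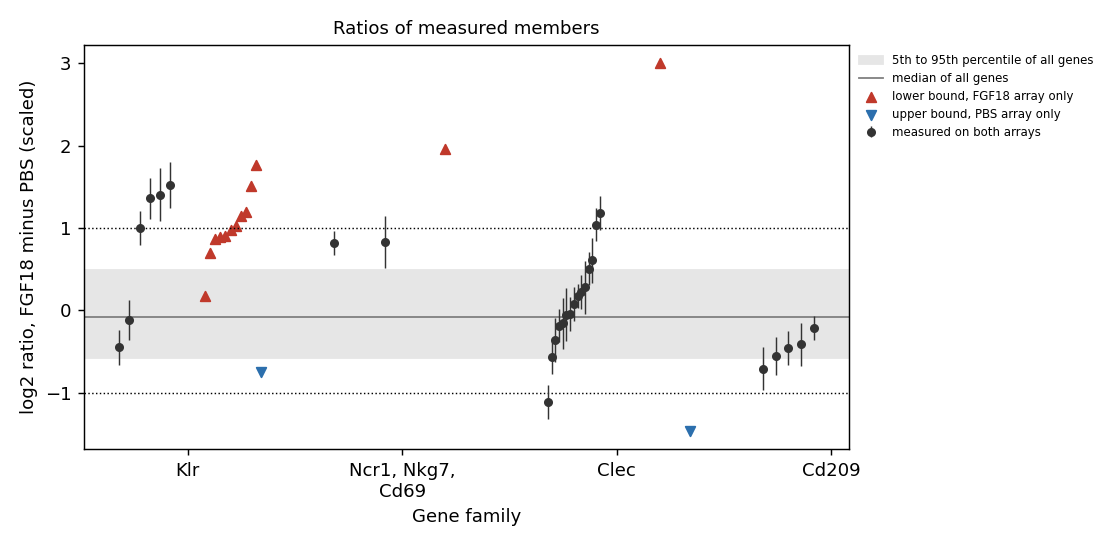
Scaled log2 ratios, FGF18 minus PBS, of the 43 members measured on any array, by gene family. Black points are genes measured on both arrays with the scanner software's error as bars, and triangles are bounds of genes measured on 1 array. The grey band holds the central 90% of all genes and dotted lines mark 2-fold. Of the 6 black Klr points 4 lie at or near 1 and above, while 10 of the 15 black Clec points lie in the grey band. All 5 Cd209 points lie below 0, and all but that of Cd209a lie in the grey band.

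The CD94 and NKG2 group holds Klrd1, Klrk1, the Klrc genes, Klre1 and Klri2. Klrd1 encodes CD94, the common partner of the NKG2 proteins that the Klrc genes encode. Its signal was 866 on the FGF18 array, against 382 on the PBS array, a log2 ratio of 1.00 ± 0.21 or 1.99-fold. Klrd1 thus sat at the 2-fold line and was past it in 7 of 14 other settings, and with scaling to spike-in transcripts. Klrk1 encodes NKG2D, an activating receptor for stress-induced class I relatives. Its signal was 120 on the FGF18 array, against 39.9 on the PBS array, a ratio of 1.40 ± 0.32 (2.64-fold), and its other probe had 96.8 on the FGF18 array, against 20.1 (not well above background) in PBS skin. Klrc2, the gene of the activating partner NKG2C, had 153 on the FGF18 array, against 47.0 on the PBS array, a ratio of 1.52 ± 0.28 (2.86-fold) from 1 of its 3 probes, the others being not well above background anywhere. The inhibitory partner gene Klrc1 had 51.4 on the FGF18 array, against 6.05 (not well above background) in PBS skin, so that it was at least 1.87-fold higher. Klrc3 had 50 on the FGF18 array, against 10.2 (not well above background) in PBS skin, or at least 1.82-fold higher. This came from 1 of its 2 probes, the other being not well above background on either array. The 3 members measured on both arrays thus had the higher signal on the FGF18 array; Klrc1 and Klrc3, measured there only, could not have gone the other way, and Klre1 and Klri2, which encode related receptors, were measured on neither.

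Apart from that of Klrd1, these ratios rest on low signals. Among all genes with a signal under 100 on an array, 2.90% stood at least 2-fold higher and 3.34% stood at least 2-fold lower, and Klrk1, Klrc2 and the Ly49 gene Klra21 are of that class. With normexp background correction, which draws dim signals together, 0 of the 6 Klr genes were past 2-fold: Klra21 was at 0.74, Klrc2 at 0.69, Klrk1 at 0.56 and Klrd1 at 0.90. Gene probes (not controls) printed at least 8 times had a median SD of 0.19 between single-spot log2 ratios at signals under 100 (22 probes). The highest SD in that class was 0.71. In the class of the brightest signals the median SD was 0.03 (95 probes).

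Ncr1 encodes NKp46, an activating receptor largely restricted to NK cells and related innate lymphoid cells. Its signal was 107 on the FGF18 array, against 19.4 (not well above background) in PBS skin, or at least 3.89-fold higher, the largest bound of an NK gene among the members. Of all genes measured on any array, 127 (0.721%) were measured on the FGF18 array only with a bound of at least 2-fold. Nkg7, a granule membrane protein of cytotoxic lymphocytes, had 834 and 391 from its 2 probes on the FGF18 array, against 427 and 189 on the PBS array. The probes gave 0.78 and 0.86, on average 0.82 ± 0.15 (1.77-fold). Cd69, an early activation antigen of lymphocytes, had 69.4 on the FGF18 array, against 34.3 on the PBS array, a ratio of 0.83 ± 0.32 (1.78-fold). Nkg7 and Cd69 were thus higher on the FGF18 array by less than 2-fold, except without scaling, where they reached 1.01 and 1.02, and with spike-in scaling (1.64 and 1.65). With normexp background correction they were at 0.66 and 0.24, the value of Cd69 then lying within its technical error.

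The Ly49 receptors, encoded by the Klra genes, bind class I molecules and include inhibitory and activating forms. Their number differs between mouse strains and their sequences are alike, so a probe may also bind a relative's transcript, and a probe designed on another strain may miss the C3H/HeN form. Of 19 Klra genes, both arrays measured 1, the FGF18 array alone 7 and neither array 11. Klra21 had 169 on the FGF18 array, against 57.9 on the PBS array, a ratio of 1.36 ± 0.25 (2.57-fold). Klra2, which encodes Ly49B, a form found on myeloid cells, had 101 and 85.9 from its 2 probes on the FGF18 array, against 8.53 and 6.37 on the PBS array. Neither probe was well above background there, and the gene was at least 3.38-fold higher. Klra17, the gene of Ly49Q, another form of myeloid and plasmacytoid dendritic cells, had 78.5 on the FGF18 array, against 5.83 (not well above background) in PBS skin, or at least 2.85-fold higher. Klra2 and Klra17 were thus the Ly49 genes with the largest bounds. Klra23 (63.2 on the FGF18 array, against 5.76 on the PBS array), Klra8 (61.1 and 21.8) and Klra16 (55.9 and 18.1, by 1 of its 2 probes) were at least 2.30-, 2.22- and 2.03-fold higher. Klra9 (54.0 on the FGF18 array, against 20.4 on the PBS array) and Klra7 (51.2 and 11.7) were at least 1.96- and 1.86-fold higher, the PBS signals of all 5 being not well above background. The 11 Klra genes measured on neither array were Klra3, Klra4, Klra5, Klra6, Klra10, Klra12, Klra13, Klra15, Klra19, Klra20 and Klra22. Without the Ly49 genes, 2 of 5 Klr genes with a ratio were at least 2-fold higher, and their median was 1.00.

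The NKR-P1 receptors, encoded by the Klrb1 genes, include activating and inhibitory forms, and neither of the 2 measured on both arrays was past 2-fold. Klrb1c, which encodes the NK1.1 antigen of C57BL/6 mice, had 44.7 from 1 of its probes on the FGF18 array, against 10.5 (not well above background) in PBS skin, or at least 1.62-fold higher. Klrb1a had 31.0 on the FGF18 array, against 17.8 (not well above background) in PBS skin, a bound of 1.13-fold. That bound lay within the error of its bright signal (5.94). Klrb1b, the inhibitory member, had 157 on the FGF18 array, against 188 on the PBS array, a ratio of -0.45 ± 0.21 (1.36-fold lower), although scaling to spike-in transcripts put it at 0.37. Klrb1f had 88.5 on the FGF18 array, against 84.2 on the PBS array, by 1 of its 2 probes. Its ratio of -0.11 ± 0.24 was 0.00 to 0.07 with several other scalings and so has no settled direction. Klrg1, an inhibitory receptor for cadherins on mature NK and T cells, was the Klr gene measured on the PBS array only. It had 16.1 (not well above background) in FGF18 skin, against 34.4 on the PBS array, or at least 1.68-fold lower.

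**Figure D2:**
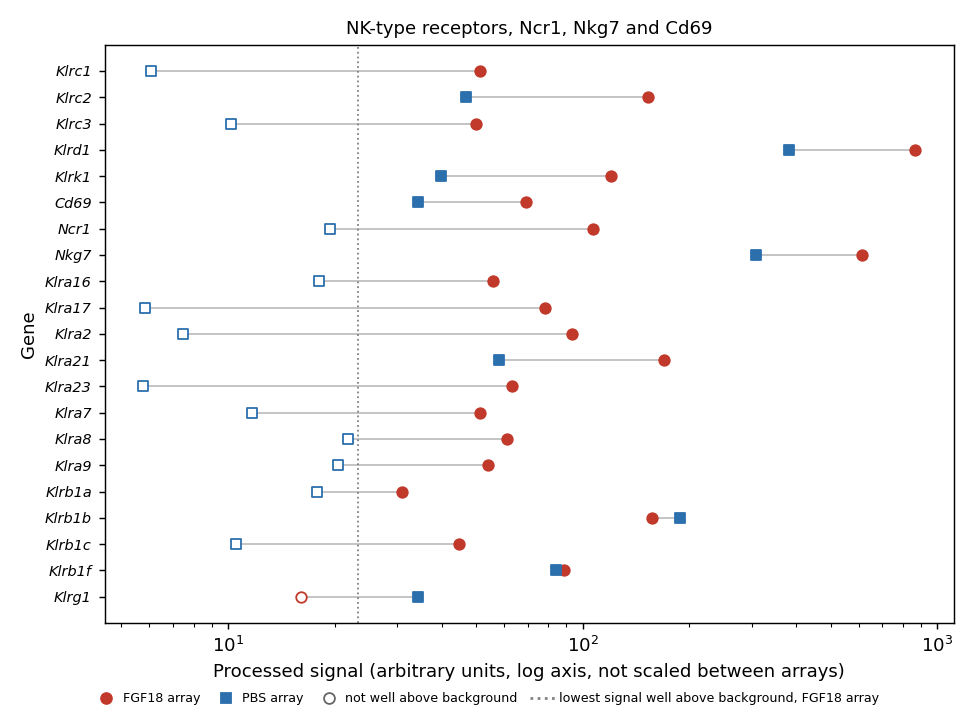
Processed signals on the FGF18 array (red circles) and the PBS array (blue squares) of the 18 measured Klr genes, Ncr1, Nkg7 and Cd69, on a log axis and before scaling, as means over the probes used. Open symbols were not well above background; the red circle lies right of the blue square in every row but those of Klrb1b and Klrg1, and most of these genes lie below a signal of 200.

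The Clec2 genes encode membrane lectins that NKR-P1 receptors recognise. Clec2d, whose product Clr-b is the ligand of the inhibitory Klrb1b receptor and is found on most nucleated cells, had 4980 on the FGF18 array, against 3080 on the PBS array, a ratio of 0.51 ± 0.20 (1.42-fold). The ligand was therefore higher and its receptor gene lower on the FGF18 array, both by less than 2-fold, in all settings but spike-in scaling. Clec2g, the gene of a ligand of Klrb1f, had 66.1 on the FGF18 array, against 47.9 on the PBS array, by 1 of its 2 probes. Its ratio was 0.28 ± 0.32, within its technical error. Clec2e, Clec2h and Clec2i were measured on neither array.

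Among myeloid lectins, the dectin-2 and DCIR cluster held both genes at least 2-fold higher and the largest bound. Clec4e encodes Mincle, an inducible receptor for mycobacterial glycolipid and for material of dead cells. Its signal was 225 on the FGF18 array, against 24.7 (not well above background) in PBS skin, so that it was at least 8.01-fold higher, the largest bound of all members. Clec4d, the gene of its partner MCL, had 444 on the FGF18 array, against 172 on the PBS array, a ratio of 1.18 ± 0.21 (2.27-fold). Clec4a3, of the DCIR family, had 1100 on the FGF18 array, against 470 on the PBS array, a ratio of 1.04 ± 0.20 (2.06-fold). With normexp background correction these were at 0.88 and 0.94, under 2-fold. The rest of the cluster lay closer together on the arrays. Clec4n, which encodes dectin-2, had 465 on the FGF18 array, against 420 on the PBS array, a ratio of -0.04 ± 0.21, and 0.15 without scaling. Clec4b1 had 2810 on the FGF18 array, against 2340 on the PBS array, a ratio of 0.08 ± 0.20. Clec4a2, the gene of the inhibitory receptor DCIR, had 2990 and 454 from 2 probes on the FGF18 array, against 2530 and 327 on the PBS array, on average 0.17 ± 0.15, and another probe (36.2) was measured on the FGF18 array only. Clec4a1 was measured on neither array.

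None of the 3 measured dectin-1 cluster genes was past 2-fold. Clec7a, which encodes dectin-1, the receptor for fungal beta-glucan, had 706 on the FGF18 array, against 705 on the PBS array, a ratio of -0.18 ± 0.20. Clec1a had 49.4 on the FGF18 array, against 48.4 on the PBS array, at -0.16 ± 0.31. Clec9a, which encodes DNGR-1, a receptor for exposed actin on cross-presenting dendritic cells, had 60.9 on the FGF18 array, against 55.5 on the PBS array, at -0.05 ± 0.32. These 3 ratios lay within their errors of 0 and were 0.00 to 0.13 without scaling. Clec1b and Clec12a were measured on neither array. Clec5a, the gene of the DAP12-coupled receptor MDL-1 of myeloid cells, had 271 on the FGF18 array, against 204 on the PBS array by 1 of its probes, at 0.22 ± 0.21. Clec4g, which encodes the endothelial lectin LSECtin, had 61.1 on the FGF18 array, against 69.0 on the PBS array by 1 of its 3 probes, at -0.36 ± 0.27, and 0.46 with spike-in scaling. Clec4f, the lectin of Kupffer cells of the liver, had 20 (not well above background) in FGF18 skin, against 56.4 on the PBS array, or at least 2.75-fold lower. Of the 15 Clec genes of the dectin and other myeloid groups, 10 were measured on both arrays, with a median of 0.02.

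The Cd209 genes, mouse relatives of the dendritic cell lectin DC-SIGN, had the lower scaled value on the FGF18 array in 5 of 5 cases, and under every other setting that measured them except spike-in scaling, which put all 5 above 0. None was past 2-fold, and their median was -0.46. Cd209a had 75.3 on the FGF18 array, against 108 on the PBS array, a ratio of -0.71 ± 0.26 (1.63-fold lower). Cd209e had 92.2 on the FGF18 array, against 119 on the PBS array, at -0.55 ± 0.23. Cd209d had 1910 on the FGF18 array, against 2310 on the PBS array, at -0.46 ± 0.20. The remaining members were nearer to 0. Cd209c had 75.4 on the FGF18 array, against 88.1 on the PBS array, at -0.41 ± 0.26. The 2 probes of Cd209b had 2180 and 213 on the FGF18 array, against 2550 and 189 on the PBS array, giving -0.41 and -0.01, on average -0.21 ± 0.15.

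Clec names also cover proteins that are not receptors of leukocytes. Clec3b encodes tetranectin, a secreted plasminogen-binding protein of mesenchymal tissue. Its signal was 3150 on the FGF18 array, against 5980 on the PBS array, a ratio of -1.11 ± 0.20 (2.16-fold lower), the only member measured on both arrays that was at least 2-fold lower. It was just under 2-fold with median scaling (-0.99), with the series value table (-0.99) and without scaling (-0.92), and at -0.29 with spike-in scaling. Clec11a, a secreted growth factor for bone and blood progenitors, had 637 on the FGF18 array, against 832 on the PBS array, at -0.57 ± 0.20 (1.49-fold lower), and 0.25 with spike-in scaling. Clec14a, an endothelial membrane protein, had 92.8 on the FGF18 array, against 53.6 on the PBS array by 1 of its 2 probes, at 0.61 ± 0.27 (1.52-fold higher). Clec3a, of cartilage, was measured on neither array. Beside these, the 3 fibroblast markers Col1a1, Col3a1 and Pdgfra had a median of -0.60 and the 4 endothelium markers one of 0.02; the part of these cells in the values of Clec3b and Clec14a was not tested.

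**Figure D3:**
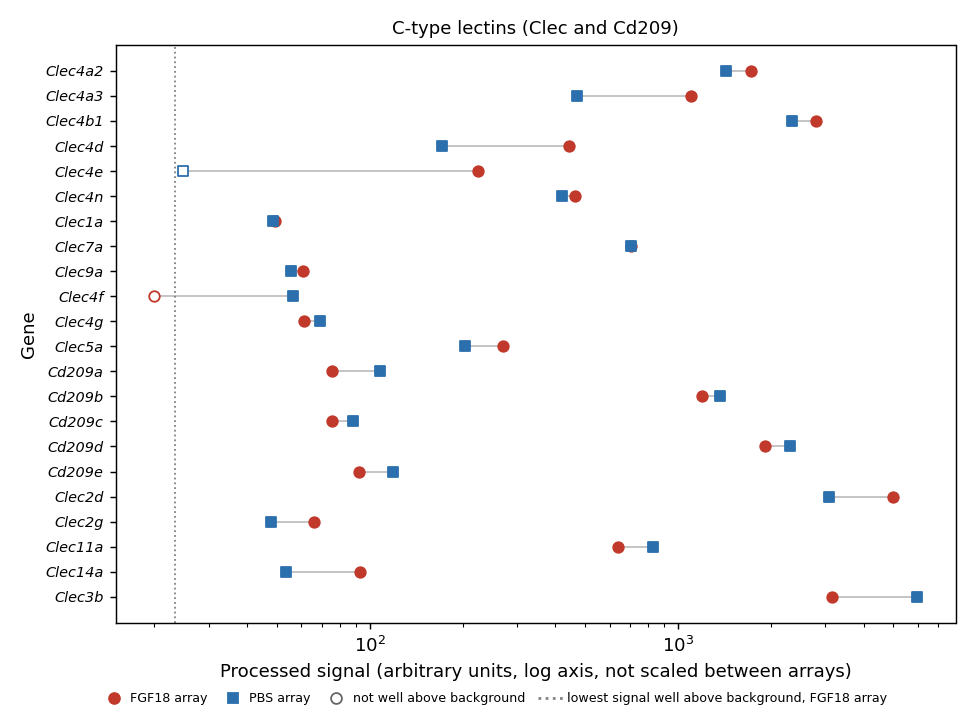
Processed signals on the FGF18 array (red circles) and the PBS array (blue squares) of the 17 measured Clec genes and the 5 Cd209 genes, on a log axis and before scaling, as means over the probes used. Open symbols were not well above background; the widest gaps to the right are those of Clec4e, Clec4d and Clec4a3, the widest to the left those of Clec4f and Clec3b, and Clec7a and Clec1a nearly coincide.

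Most members lay in clusters of chromosome 6. By the RefSeq annotation, 46 members were on chromosome 6, 7 on chromosome 8, 3 on chromosome 7 and 1 each on chromosomes 9 and 12, and 5 Klra genes were not matched. Along chromosome 6 the dectin-1 cluster genes Clec9a, Clec1a and Clec7a, at -0.18 to -0.05, were the members just before Klre1, Klrd1, Klrk1, Klrc3, Klrc2 and Klrc1. Of these 6, Klrd1, Klrk1 and Klrc2 were at 1.00 to 1.52, Klrc3 and Klrc1 had bounds of at least 1.82- and 1.87-fold, and Klre1 was not measured. In the neighbouring cluster, Clec4n (-0.04) lay next to Clec4d (1.18) and Clec4e (at least 8.01-fold). The neighbours Clec4n and Clec4d thus had unlike ratios, as did Clec7a and Klrd1, which lay on either side of Klre1 with other genes between them. Klrd1 and Klrk1, which lay next to each other, both stood higher.

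**Figure D4:**
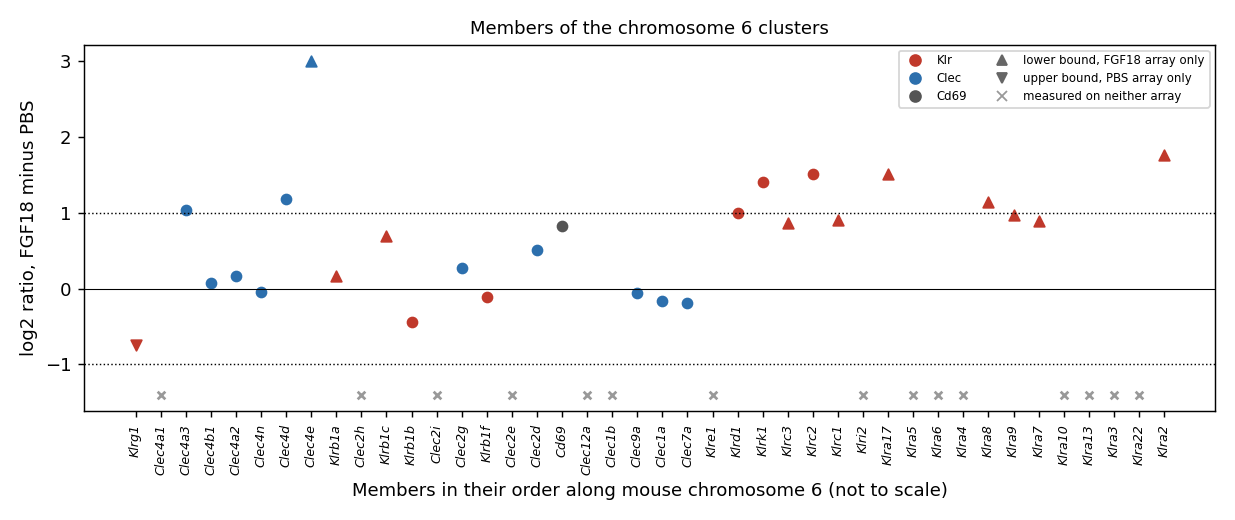
Scaled log2 ratios, FGF18 minus PBS, of the chromosome 6 cluster members in their order in the RefSeq table, which is not a scale of distance. Circles were measured on both arrays, triangles are bounds, crosses at the bottom mark members measured on neither array and dotted lines mark 2-fold; the Klr points from Klrd1 rightwards lie near or above 1, and the Clec1a, Clec7a and Clec9a points beside them lie near 0.

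The receptors act through adaptors, and their cells are known by other genes. Of 34 listed NK and cytotoxic lymphocyte genes, 31 had a probe; both arrays measured 20 and the FGF18 array alone 5. Of the 20, 7 were at least 2-fold higher and 0 lower (1.53% and 0.993% of all genes), with a median of 0.25. The granule protease gene Gzmb had 1430 on the FGF18 array, against 58.1 on the PBS array, a ratio of 4.44. Perforin, Prf1, had 213 on the FGF18 array, against 56.2 on the PBS array, at 1.74. The transcription factor Tbx21 was at 1.37, the interleukin receptor chain Il2rb at 1.03, the kinase Txk at 2.03, the chemokine Ccl5 at 2.70 and the surface receptor Slamf7 at 2.07. Gzma was at least 19.0-fold and the interferon gene Ifng at least 2.37-fold higher. Not all genes of the list stood higher, and Gzmc was lowest at -0.58. Cd244a (-0.53), Cd7 (-0.47), Cd96 (-0.44), Nfil3 (-0.40), Il18r1 (-0.17), Slamf6 (-0.13) and Ctsw (-0.02) were also below 0. Eomes and Itga2, which mark NK cells, were measured on neither array, Eomes having 22.9 on the FGF18 array, against 7.27 on the PBS array.

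Of 15 adaptor and signalling genes with a probe, 14 were measured on both arrays and 0 were past 2-fold, with a median of 0.30 against the -0.07 of all genes. Tyrobp, which encodes DAP12, the adaptor of activating NK receptors and of MDL-1, was highest, with 4500 on the FGF18 array, against 2280 on the PBS array (0.80 ± 0.20). The phosphatase gene Ptpn11 was lowest at -0.56. Fcer1g, the adaptor of Mincle and dectin-2, had 3715 on the FGF18 array, against 2090 on the PBS array (0.64 ± 0.14), and Hcst, which encodes DAP10, the adaptor of NKG2D, had 185 and 205 (-0.33 ± 0.21), both named after their values were seen. Of 11 ligand genes with a probe, 9 were measured on both arrays and 0 were past 2-fold, with a median of -0.09. H2-T23, which encodes Qa-1, the class I molecule read by CD94 paired with Klrc products, was highest. It had 57700 on the FGF18 array, against 33600 on the PBS array (0.59 ± 0.20), and the adhesion gene Nectin2 was lowest at -0.74.

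The label of NK receptors could be set against few independent cell markers. Of 6 NK cell markers, Ncr1, Klrb1c and Klrk1 are members themselves, and of the other 3 only Prf1 was measured, Eomes and Itga2 being measured on neither array. Cytotoxic T cells also express Prf1. Sums of signals were taken before scaling, so bright genes weigh most in them. The summed signal of the NK markers measured on both arrays, which are Prf1 and the member Klrk1, was 333 on the FGF18 array, against 96.1 on the PBS array. Of 10 T cell markers, 8 were measured on both arrays, at -0.66 to 0.10 with 0 past 2-fold, and their summed signal was 1947 on the FGF18 array, against 2016 on the PBS array. Cd8b1 alone had 846 and 856 of these sums, whereas Cd8a (18.2 and 14.8) and Cd28 were measured on neither array. The 10 macrophage and monocyte markers with a probe were all measured on both arrays, at -0.71 to 0.66 with 0 past 2-fold, and summed to 56659 on the FGF18 array, against 60328 on the PBS array. Most of both sums came from Lyz2, with 37101.5 and 41093.5. The 6 dendritic cell markers lay at -0.30 to 0.55, the 4 Langerhans cell markers at -0.74 to -0.21, and the 2 measured of 4 gamma-delta T cell markers at 0.00. Of 5 neutrophil markers measured on both arrays 1 was past 2-fold, S100a8 at 1.82, and their median was -0.27. At least 2-fold higher thus stood 7 of 20 NK and cytotoxic genes, whose median was 0.25, and 3 of 6 Klr genes. Of all genes 2.52% were past 2-fold in either direction. Counts of 0 among 8 T cell and 10 macrophage markers therefore do not set those lists apart from all genes. The part of each cell type in the receptor values was not tested.

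**Figure D5:**
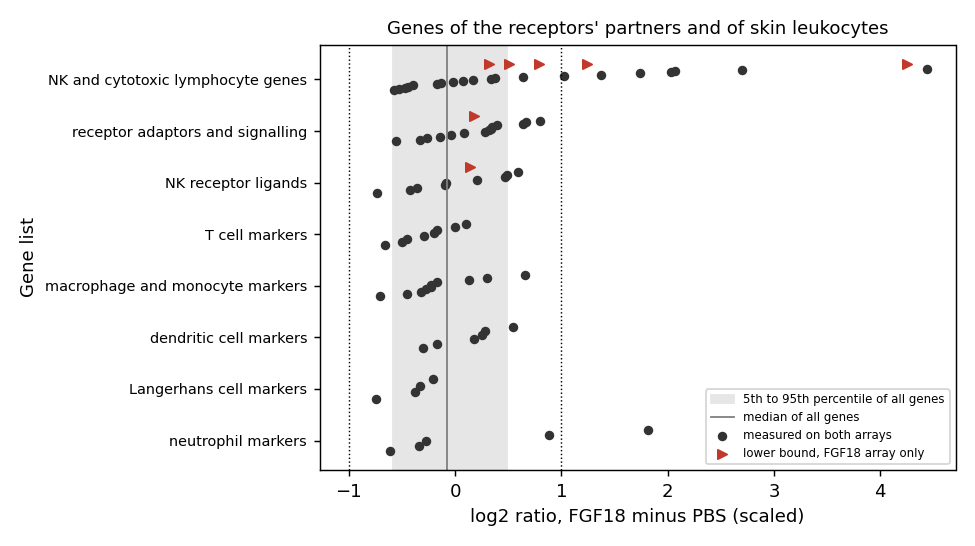
Scaled log2 ratios, FGF18 minus PBS, of genes in 8 lists of receptor partners and leukocyte markers. Points are genes measured on both arrays, triangles are bounds of genes measured on the FGF18 array only, the grey band holds the central 90% of all genes and dotted lines mark 2-fold; only the NK and cytotoxic list and, by S100a8, the neutrophil list have points right of 1.

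Some genes now named Clec or Klr carry older names in the files and were not among the 63. Clec10a, a galactose-binding lectin of macrophages printed as Mgl1, had 14600 on the FGF18 array, against 13500 on the PBS array, a ratio of -0.07. Clec16a, by the probe measured on both arrays, had 1030 on the FGF18 array, against 990 on the PBS array, at -0.13, and Klrg2 had 200 and 203, at -0.21. Clec12b, Clec18a, Clec2m and Klrb1 were measured on neither array. With updated names the Klr genes measured on both arrays numbered 7 and the Clec genes 17.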

How the data were processed

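Per the labels' protocols, poly(A) RNA of full-thickness back skin was labelled with Cy3 from 200 ng, and per the file headers Agilent Feature Extraction 9.5.3.1 read the arrays, which were of design 014868. The deposited intensity values include a processed signal, background-subtracted and detrended per the file headers. The deposited series table holds a ratio: the processed signal over that array's median (83.8 for FGF18 and 80.0 for PBS), to within 0.0078 in log2 units. The medians of its columns were 1.00 and 0.999. Its scale and direction were found by this match, and any centring of genes was not seen. Both arrays came from 1 slide and 1 scan.

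Control and outlier spots were left out, log2 of the processed signal was scaled to the 75th percentile over spots (1020 for FGF18 and 897 for PBS), spots of a probe and measured probes of a gene were averaged, and a probe was measured where the share of its spots well above background reached 0.5. That flag was set for 62.4% of FGF18 spots and 61.5% of PBS spots, and 0 were saturated. Taking the percentile over spots rather than probes was decided after ratios from both were seen.

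Other genes were named through RefSeq (GRCm38.p6): 23374 probes by accession, 6733 by symbol and 2907 by synonym, while 8160 kept their printed name. No build is named in the files, so no probe positions are given. The members and lists were chosen with earlier results of these data known. Every member measured on any array is named. Of other lists, those past 2-fold and otherwise the highest and lowest are named. Some others, such as the lower NK and cytotoxic genes and the brightest T cell and macrophage markers, were added after their values were seen. The script for the ratios was tested on simulated data, which says nothing of how the ratios would repeat. A planned search of protein motifs was not run, no protein sequences being used here. Analyses used Python 3.11.15, pandas 2.3.3, R 4.3.3 and limma 3.58.1.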

Additional observations from a re-analysis of the deposited data

How the results depend on the processing

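No paired analysis was possible because each group had 1 array, and the slide could not be used as a block. Of 407 single-gene values under other settings, 365 stayed within their technical error, 42 moved by more (28 of them under spike-in scaling) and 0 of those past 2-fold changed sign. Much of the 365 could not have moved. Another percentile, scaling to the median, the series value table and leaving out scaling each shifted all ratios nearly alike. The largest of these shifts was 0.185, without scaling, and the lowest technical error of a member with 1 probe was 0.204. Such members could therefore not be counted as moved under these settings. Settings that change only the names, the signal filter or the averaging of probes return the same value for most genes with 1 probe. Counts are of genes at least 2-fold higher and, unless said otherwise, of genes measured on both arrays. With normexp background correction 0 Klr genes in place of 3 were higher, their median was 0.63, 0 Clec genes in place of 2 were higher and 1, Clec3b, stayed lower, and the Klr median stood 0.65 above the Clec median. With genes of 1 array included at their bounds, 43 members were counted and 8 of 18 Klr genes were higher (2.16% of all genes), 5 of them measured on the FGF18 array only, where they had to be higher. With no filter on dim probes, all 63 members were counted, 10 of 31 Klr genes were higher and 1 lower (2.85% and 3.27% of all genes), the Klr median was 0.50 and the difference 0.54. With signals over 100 on both arrays 15 members remained, 0 of 2 Klr genes were higher, their median was 0.28 and the difference 0.15, so the contrast of the families rests on dim genes. At a threshold of 3-fold, 0 Klr and 0 Clec genes measured on both arrays were higher, while the bounds of Klra2 and Clec4e, measured on the FGF18 array only, exceeded it. Scaling to 7 spike-in probes, chosen after seeing the data, raised all ratios by 0.82: the Klr median was 1.99, the Clec median 0.89, and 6 of 15 Clec genes were higher, as were 16.1% of all genes. The median of all genes was then 0.74, and 0.11 without scaling, against -0.07; relative to it, the Klr and Clec medians were unchanged, at 1.25 and 0.15 above it. With the percentile over probes, 4 Klr genes were higher, Klrd1 being the added gene.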
